A study of Mus musculus with 4 samples.

Results

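The genes described here are Lat, Lck, Zap70, Lcp2, Fyn, Txk, Themis, Prkcq and Ptpn22, 9 genes whose proteins act next to the T-cell receptor. They were read from every probe set that the array's annotation assigns to exactly 1 of them. This gave 15 of 45101 probe sets and 8 of 18193 genes, because 1 gene, Lck, had no such probe set and was not analysed here. RNA from 4 samples of C57BL6 mice was hybridised to 1 array each, so no group had a replicate. The mixed lineage leukemia grew from blood stem or precursor cells that carried, after transduction, MLL-AF4 as well as AF4-MLL. AF4-MLL alone was carried by the cells behind the other two leukemias, an acute lymphoblastic leukemia of proB type (proB ALL) and an acute leukemia with both B and T features (B/T BAL). Below, the proB ALL and B/T BAL are called the AF4-MLL leukemias, although the cells behind the mixed lineage leukemia carried AF4-MLL too. The 4th sample was bone marrow of the control group, for which the labels give the immunophenotype normal. The leukemic marrow was taken from moribund mice several months on, and the names of the leukemias come from flow cytometry of unsorted cells. The labels give neither the age or number of the mice behind each array nor the promoter that drove the fusions.

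When a T-cell receptor binds its ligand, kinases of the Src family phosphorylate the tails of the CD3 chains, and Zap70 docks there and is activated in turn. Zap70 phosphorylates the membrane adaptor Lat and the cytosolic adaptor Lcp2 (SLP-76), which assemble the complex from which calcium, Ras and protein kinase C signals start. Natural killer (NK) cells use many of the same proteins behind other receptors, while B cells and myeloid cells use related proteins such as Syk and Btk.

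The values were MAS5 signals, brightness values per probe set on a linear scale, with a trimmed mean of 1000 on each array after removal of 2% of probe sets at each end. The median of all signals, 189, was taken as a floor, and a lower signal was treated as having only an upper bound. Differences are given on a log2 scale after adding 51.4 to each signal, the 25th percentile of all signals, and they understate the change of dim genes. A gene was called higher or lower between 2 arrays when this difference was at least 1, that is 2-fold. Such a call rests on 1 array a side and is not a test, and where 1 signal lies below the floor the fold that the floor allows can be under 2. A gene with several probe sets is represented by the one with the highest mean log2 value. All 8 measured genes were above the floor on at least 1 array and entered the comparisons among 14012 genes. Lat, Zap70 and Themis lay below the floor on the mixed lineage array and passed through the other 3 arrays, so their low values there are bounds.

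Of the sequences around the starts of these genes, those that hold the letters of the RUNX motif are shown. RUNX factors are regulators of T-cell genes, and their part in the members' signals was not tested. The letters lay near a start of Lat, Zap70, Ptpn22 and Txk, but not of Fyn, Prkcq, Themis or Lcp2. RefSeq windows of 300 bases (GRCm38.p6), 250 before and 50 after an annotated transcript start, were on hand for all 8 measured genes, 13 windows in all. The motif TGTGGT, on either strand, was present in 4 of 13 windows (30.8%), against 16.8% of 32851 windows of all genes, some of which overlap, as do the 2 windows of Themis. The other motifs were also searched on both strands. Of the 13 windows, 1 held CTTTGAA, letters bound by TCF/LEF factors, against 5.14% of all windows. AGATAA, which factors of the family of Gata3 bind, was in 2, against 11.2%. The E-box CAGCTG was in 1, against 16.3%, and CGGAAGT, which Ets factors bind, was in 0, against 6.42%. A match is a description of the letters and not a binding site. The 4 windows with the RUNX letters are at chr7:126369519-126369818 (minus strand, Lat), chr1:36764265-36764564 (plus strand, the second of 3 Zap70 starts), chr3:103860027-103860326 (plus strand, the second of 2 Ptpn22 starts) and chr5:72736553-72736852 (minus strand, the downstream of 2 Txk starts), each printed in the direction of the gene. Capitals mark matches to any of the 5 motifs, and on the opposite strand the RUNX letters read ACCACA. The RUNX match began 5 bases before the start of Lat, 75 before that of Zap70 and 20 before that of Txk, and Ptpn22 held 3 matches. The Txk window also holds AGATAA.
Lat: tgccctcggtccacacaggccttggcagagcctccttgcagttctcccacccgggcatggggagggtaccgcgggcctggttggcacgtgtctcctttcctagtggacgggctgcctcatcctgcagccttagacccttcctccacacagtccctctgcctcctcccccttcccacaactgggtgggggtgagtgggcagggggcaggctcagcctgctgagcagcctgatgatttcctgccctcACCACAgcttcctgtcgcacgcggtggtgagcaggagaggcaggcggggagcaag
Zap70: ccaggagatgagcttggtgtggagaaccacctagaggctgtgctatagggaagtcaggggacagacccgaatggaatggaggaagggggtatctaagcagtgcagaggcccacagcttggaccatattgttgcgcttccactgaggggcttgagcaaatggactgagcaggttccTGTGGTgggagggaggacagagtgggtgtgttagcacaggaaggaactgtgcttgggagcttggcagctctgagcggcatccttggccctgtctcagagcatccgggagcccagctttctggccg
Ptpn22: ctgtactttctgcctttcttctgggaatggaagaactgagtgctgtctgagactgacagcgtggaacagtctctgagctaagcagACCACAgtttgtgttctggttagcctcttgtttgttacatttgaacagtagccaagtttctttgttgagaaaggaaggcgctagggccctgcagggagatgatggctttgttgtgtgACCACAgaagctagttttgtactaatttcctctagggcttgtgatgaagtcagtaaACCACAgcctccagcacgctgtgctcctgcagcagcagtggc
Txk: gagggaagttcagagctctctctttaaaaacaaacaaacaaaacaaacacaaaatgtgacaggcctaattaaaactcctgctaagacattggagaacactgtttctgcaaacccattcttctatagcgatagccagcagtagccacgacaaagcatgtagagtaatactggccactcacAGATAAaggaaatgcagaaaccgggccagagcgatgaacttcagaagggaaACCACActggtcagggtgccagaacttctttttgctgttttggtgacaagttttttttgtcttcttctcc

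The array labels were first set against marker genes. T-cell markers were above the floor for 7, 7 and 14 of 14 genes on the mixed lineage, proB ALL and B/T BAL arrays, and for 10 of 14 in normal marrow, with summed signals of 3043, 54172, 187317 and 5113. NK and cytotoxic markers had sums of 11160, 195789 and 53767 over 9 genes in the leukemias in that order, and 13582 in normal marrow, and the B/T BAL sum was almost wholly Gzma, at 52157. B-cell markers had sums of 8976, 5044 and 1861 over 9 genes in the leukemias and 39061 in normal marrow. Each of the 8 B-cell markers above the floor on some array was at least 2-fold lower in the proB ALL than in normal marrow. The same held in the B/T BAL, and 18.7% and 17.7% of all tested genes were lower on these arrays. These markers therefore went against the B-lineage part of both names. Vpreb1, the surrogate light chain of pre-B cells, had a signal of 30.1 in the proB ALL and 54.1 in the B/T BAL. Neutrophil and monocyte markers had sums of 613743, 115496 and 330464 in the leukemias and 377403 in normal marrow. The plot of marker sums shows these 4 lists and the red cell list. The share of probe sets above the floor was 57.4% on the mixed lineage array and between 46.3% and 49% on the other 3 arrays. The ratio of the 3' to the 5' control probe set of Actb, a measure of RNA quality, was 3.10, 2.47 and 4.72 in the leukemias and 1.87 in normal marrow, and its part in the results was not tested. In bulk RNA, fewer cells of a type and less RNA per cell cannot be told apart.

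**Figure D1:**
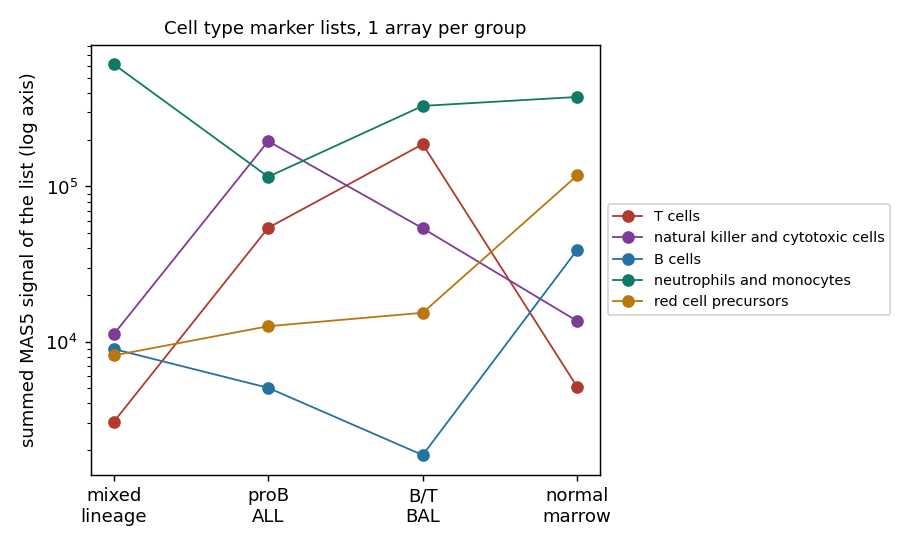
Summed MAS5 signal (log axis) of each of 5 cell type marker lists on the mixed lineage, proB ALL, B/T BAL and normal bone marrow arrays, 1 array each, with lines joining the points of a list. T-cell markers peak on the B/T BAL array (187317) and NK and cytotoxic markers on the proB ALL array (195789), while B-cell and red cell markers peak in normal marrow.

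Among the kinases, Fyn, Zap70, Txk and Prkcq were all at least 2-fold higher in the proB ALL than in normal marrow, and Txk alone did not share this in the B/T BAL. Zap70, the kinase that binds phosphorylated CD3 chains, had signals of 136 in the mixed lineage leukemia, 1850 in the proB ALL and 7311 in the B/T BAL, against 616 in normal marrow. It was thus highest in the B/T BAL, 11.9-fold above normal marrow, 3.00-fold above it in the proB ALL, and at least 3.27-fold below it in the mixed lineage leukemia. Its second probe set, 1422701_at, had 80.0, 2942 and 6982 in the leukemias and 346 in normal marrow, with the same order of the leukemias. The remaining probe set, 1439749_at, went the other way, with 62.2, 1544 and 530 in the leukemias against 1861 in normal marrow. By that probe set Zap70 was 3.51-fold lower in the B/T BAL than in normal marrow, so the higher Zap70 of B/T BAL was shown by 2 of 3 probe sets.

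Fyn, a Src family kinase of T cells and many other cells, had 659 in the mixed lineage leukemia, 6550 in the proB ALL and 3283 in the B/T BAL, against 815 in normal marrow. It was 8.04-fold higher in the proB ALL and 4.03-fold higher in the B/T BAL. Its other probe set, 1417558_at, gave 5118 and 3786 in these leukemias against 731 in normal marrow, but 99.7 in the mixed lineage leukemia. The probe sets of Fyn therefore differed on the mixed lineage array, where the first was 1.24-fold and the second at least 3.87-fold lower than in normal marrow.

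Txk, a Tec family kinase of T cells and NK cells, was high on a single array. Its signal was 352 in the mixed lineage leukemia, 3989 in the proB ALL and 238 in the B/T BAL, against 295 in normal marrow. The proB ALL value was 13.5-fold above normal marrow, and the other 3 arrays lay within 1.48-fold of each other. Prkcq, the protein kinase C isoform that links the receptor to NF-kappaB, had 247 in the mixed lineage leukemia, 9828 in the proB ALL and 3151 in the B/T BAL, against 673 in normal marrow. It was 14.6-fold higher in the proB ALL, 4.68-fold higher in the B/T BAL and 2.72-fold lower in the mixed lineage leukemia. Txk and Prkcq were each measured by 1 probe set whose name ends in _a_at, which marks probes shared by transcripts of a gene, and the representative of Zap70 ends in _x_at, which marks probes that may bind other sequences.

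**Figure D2:**
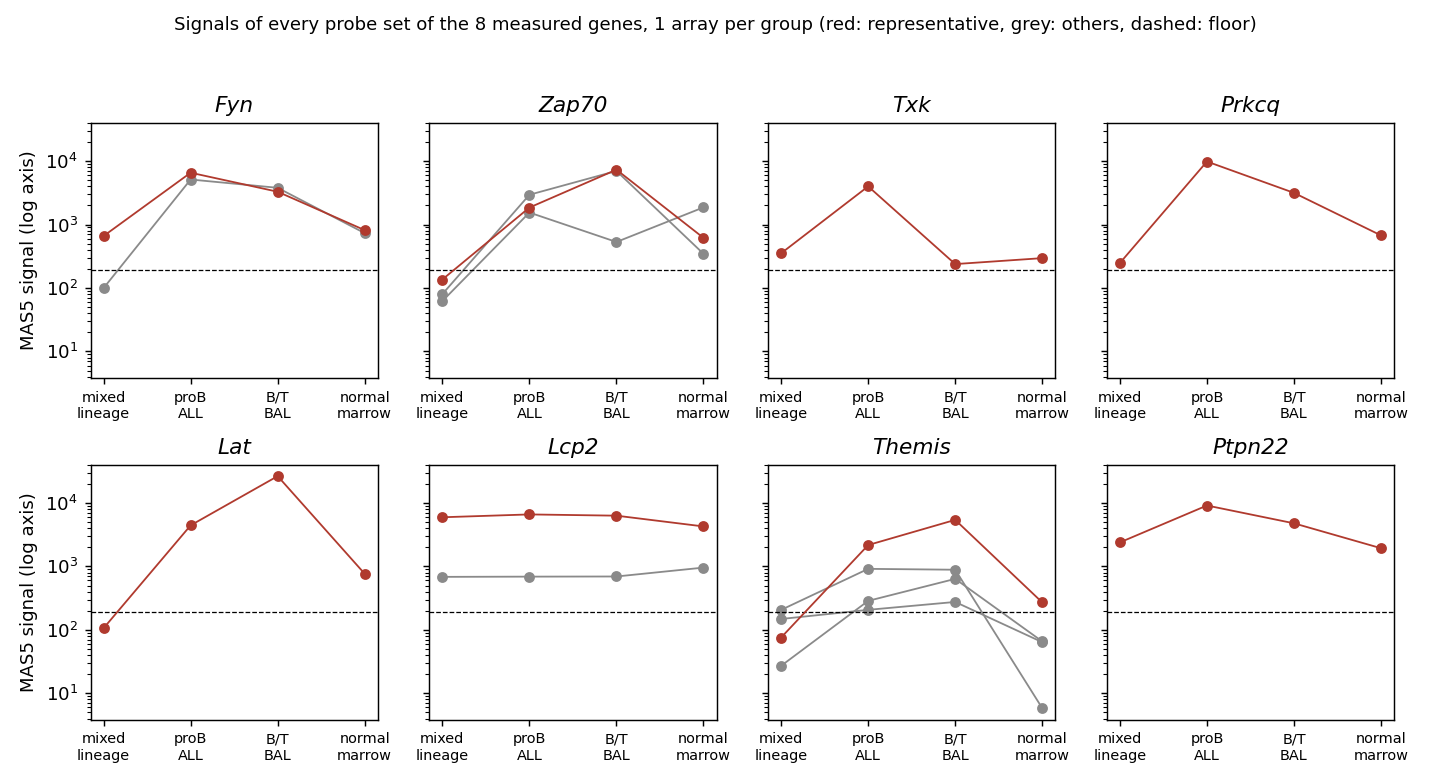
MAS5 signal (log axis) of every probe set of the 8 measured genes on the mixed lineage, proB ALL, B/T BAL and normal bone marrow arrays, 1 array each, with red for the representative probe set, grey for the others and a dashed line at the floor of 189. Lat climbs to 26454 in the B/T BAL, Txk is high in the proB ALL alone (3989), and the probe sets of Lcp2 stay level across the arrays.

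The adaptors divided into Lat and Themis, which were high in both AF4-MLL leukemias, and Lcp2, which was nearly level. Lat, the membrane scaffold that Zap70 phosphorylates, had 106 in the mixed lineage leukemia, 4436 in the proB ALL and 26454 in the B/T BAL, against 765 in normal marrow. The B/T BAL signal was 34.6-fold above normal marrow, the widest of the members' differences from it on any array, the proB ALL signal was 5.80-fold above it, and the mixed lineage signal at least 4.05-fold below it. Lat had 1 probe set.

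Themis, an adaptor that T cells need to pass selection in the thymus, had 75.7 in the mixed lineage leukemia, 2170 in the proB ALL and 5412 in the B/T BAL, against 271 in normal marrow. That was 8.02-fold higher in the proB ALL, 20.0-fold higher in the B/T BAL and at least 1.44-fold lower in the mixed lineage leukemia. All 4 probe sets of Themis were at least 2-fold higher on the log2(signal + 51.4) scale in both AF4-MLL leukemias. The 3 others were dimmer, with 207 to 915 in the proB ALL and 275 to 886 in the B/T BAL, and did not reach the floor in normal marrow. On the mixed lineage array they had 27.1 to 206, and 2 of them were above normal marrow there, 1443192_at with 206 against 5.83, at least 1.09-fold, and 1442022_at with 148 against 64.0, where neither signal reached the floor.

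Lcp2, the adaptor SLP-76 shared by T cells, NK cells, platelets and myeloid cells, had 5948 in the mixed lineage leukemia, 6594 in the proB ALL and 6302 in the B/T BAL, against 4264 in normal marrow. It was between 1.39-fold and 1.55-fold higher in the leukemias. Its other probe set, 1418642_at, ran from 684 to 694 in the leukemias and had 957 in normal marrow, between 1.38-fold and 1.40-fold lower. The probe sets disagreed in direction, neither reached 2-fold, and the leukemias lay within 1.11-fold of one another by either.

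Ptpn22, a phosphatase that acts on Src family kinases and Zap70 and so dampens the pathway, was also higher in both AF4-MLL leukemias. Its signal was 2389 in the mixed lineage leukemia, 9114 in the proB ALL and 4775 in the B/T BAL, against 1934 in normal marrow. It was 4.71-fold higher in the proB ALL and 2.47-fold higher in the B/T BAL, and 1.23-fold higher in the mixed lineage leukemia.

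Counted over the 8 measured genes, 7 were at least 2-fold higher and 0 lower in the proB ALL than in normal marrow, where 11.3% of all tested genes were higher and 18.7% lower. In B/T BAL 6 were higher and 0 lower, where 15.4% of all genes were higher and 17.7% lower. In mixed lineage leukemia 0 were higher and 4 lower, namely Lat, Zap70, Themis and Prkcq, where 18.8% of all genes were higher and 15.2% lower. The median log2 differences of the 8 genes were -0.78 in the mixed lineage leukemia, 2.62 in the proB ALL and 2.04 in the B/T BAL, beside medians over all tested genes of 0.08, -0.11 and 0.05. The 1 normal array is common to these 3 comparisons. In the plot of signals per probe set, 12 of 15 probe sets were called higher and 0 lower in the proB ALL. In the B/T BAL 11 of 15 were called higher and 1 lower. These calls are on the log2 scale, and the share of all probe sets called was not counted. Themis has 4 of the 15, all called higher in both leukemias. For 1439719_at the floor allows only 1.52-fold in the proB ALL. For 1442022_at it allows only 1.1-fold in the proB ALL and 1.46-fold in the B/T BAL. The 4 lower genes of mixed lineage leukemia were 2 with a pseudocount at the 50th percentile of all signals and 3 when dimmer signals were set to the floor. Themis had a log2 difference of -0.42 with its signals so set and 0.26 when its probe sets were averaged, and its lower call held in 7 of 10 settings.

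All 3 leukemias together were compared with normal marrow with limma, whose error came from the spread among 3 leukemias of different immunophenotype (2 residual degrees of freedom), with the lone normal array assumed to vary like them. No member passed, with a limma adjusted p of 0.9999 for each of the 8 genes. Ptpn22 had the lowest unadjusted p of the members, 0.175, for a log2 difference of 1.26 ± 0.84 (SE), and was higher in 3 of 3 leukemias. Lat had 1.70 ± 2.32 and was higher in 2 of 3. Over all genes 0 of 14012 passed in either direction (0% called), and 44 higher and 369 lower genes had an unadjusted p under 0.05 (0.314% and 2.63%), none of them a member.

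Fyn, Zap70, Prkcq, Lat, Themis and Ptpn22 were called higher than normal marrow in both leukemias with AF4-MLL alone. The share of all genes called in both was not counted, and both calls use the same normal array. These leukemias differed from each other in the levels of the named genes and in Txk. Of the 8 genes, 3 were at least 2-fold higher in the B/T BAL than in the proB ALL, against 15.9% of all tested genes, and 2 were lower, against 10.5%. Lat was 5.96-fold, Zap70 3.95-fold and Themis 2.49-fold higher in the B/T BAL. Txk was 16.8-fold and Prkcq 3.12-fold lower in the B/T BAL. Fyn and Ptpn22 lay just short of the 2-fold call on the log2 scale, at -0.99 and -0.93, and Lcp2 was at -0.06. Zap70 again depended on the probe set, at 1.95 and 1.23 by 2 of them and -1.46 by 1439749_at. With the mean over probe sets Lat alone stayed above 2-fold, Zap70 being at 0.58 and Themis at 0.66.

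**Figure D3:**
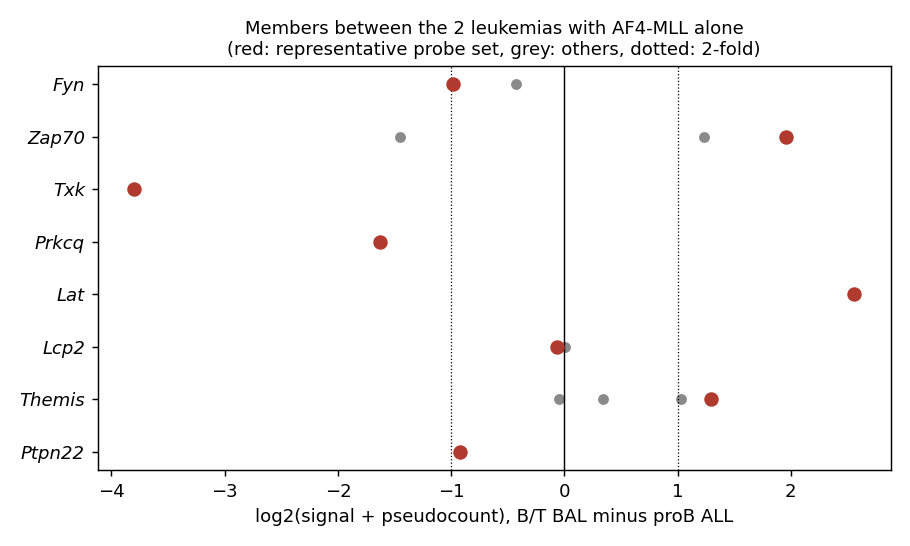
Difference in log2(signal + 51.4), B/T BAL minus proB ALL, for each probe set of the 8 measured genes (red for the representative, grey for the others), with dotted lines at 2-fold and 1 array a side. Lat, Zap70 and Themis lie to the right and Txk and Prkcq to the left by their representatives, and 1 grey point of Zap70 lies at -1.46.

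These differences ran beside the marker lists. NK and cytotoxic markers were at least 2-fold lower in the B/T BAL than in the proB ALL for 8 of 9 genes and higher for 0, with a median of -5.54. T-cell markers were higher for 10 of 14 genes and lower for 0, with a median of 3.31. Over all tested genes 10.5% were lower and 15.9% higher in this comparison. The part of the cell mix in the members' differences was not tested.

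By their representative probe sets, Fyn, Zap70, Prkcq, Lat and Themis had their lowest signal of the 4 arrays in the leukemia with both fusions. The share of all genes lowest there was not counted. Fyn was only slightly lower there than in normal marrow, at 659 against 815. The probe sets 1443192_at and 1442022_at of Themis were instead lowest in normal marrow, at 5.83 and 64.0. Against the proB ALL, 7 of 8 genes were at least 2-fold lower in the mixed lineage leukemia and 0 higher, where 15.7% of all genes were lower and 27.3% higher, with a median of -3.33. Against the B/T BAL, 5 were lower and 0 higher, where 21.2% of all genes were lower and 26.3% higher, with a median of -2.83. Lat was at least 140-fold lower in the mixed lineage leukemia than in the B/T BAL, and Prkcq 39.7-fold lower than in the proB ALL. Lcp2 was within 1.11-fold of both. Txk was 1.48-fold higher than in the B/T BAL, and Ptpn22 was at -0.98, just short of the call. The fusions and the immunophenotype cannot be told apart here, since each leukemia is 1 array.

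The receptor chains that feed the pathway were high throughout in the B/T BAL and divided in the proB ALL. Of 8 CD3, pre-T receptor and coreceptor genes, all 8 were at least 2-fold higher in the B/T BAL than in normal marrow, with a median of 4.83. All 8 are also among the 14 T-cell markers above, so these counts are not separate from the marker counts. Trat1, Cd28, Cd5 and Cd6, named below, are T-cell markers too, and Blnk is also in the B-cell marker list. In proB ALL 3 were called higher and 2 lower, with a median of 0.40. In mixed lineage leukemia 0 were called higher and 3 lower, with a median of -0.64. The lower calls were Cd3e and Cd8b1 in both and Cd247 in the mixed lineage leukemia, all below the floor there. The floor allows only 1.97-fold, 1.25-fold and 1.15-fold for them, so none is shown to be 2-fold lower. Over all tested genes 15.4% were higher in the B/T BAL, 11.3% in the proB ALL and 18.8% in the mixed lineage leukemia. Lower were 17.7%, 18.7% and 15.2%. Cd247, the zeta chain that T cells and NK cells share, had 78.2, 3788 and 4601 on the mixed lineage, proB ALL and B/T BAL arrays, against 216 in normal marrow. Other probe sets of Cd247 went the opposite way on the mixed lineage and B/T BAL arrays. Cd3d had 765, 12582 and 43500 against 1002, and Cd3g had 314, 3290 and 25806 against 632. Cd3e was below the floor in the proB ALL (32.3) and mixed lineage leukemia (43.8), and had 11474 in the B/T BAL and 372 in normal marrow. In proB ALL the pre-T receptor chain Ptcra and the coreceptors Cd4, Cd8a and Cd8b1 were also below the floor, with signals of 114, 122, 135 and 68.6. In B/T BAL they had 7093, 848, 10607 and 4987, against 123, 42.9, 307 and 236 in normal marrow.

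Other components next to the receptor were high in both AF4-MLL leukemias in part. Of 13 such genes 12 were measured. In the proB ALL 6 were at least 2-fold higher and 1 lower, against 11.3% and 18.7% of all tested genes. In the B/T BAL 9 were higher and 1 lower, against 15.4% and 17.7%. In the mixed lineage leukemia 1 was higher and 2 lower, against 18.8% and 15.2%. The medians were 1.12, 2.22 and -0.25 in that order. Sh2d2a, an adaptor that binds Src family kinases, had 43.0 in the mixed lineage leukemia, 8057 in the proB ALL and 1626 in the B/T BAL, against 59.7 in normal marrow. Trat1, a transmembrane adaptor of the receptor, had 27.2, 1588 and 2907 in the leukemias, against 59.4 in normal marrow. Skap1, an adaptor that links the receptor to integrins, had 557, 2587 and 5213, against 389. A separate list of CD45 and costimulation held 4 genes. In the proB ALL 2 of these were at least 2-fold higher and 0 lower, against 11.3% and 18.7% of all tested genes. In the B/T BAL 3 were higher and 0 lower, against 15.4% and 17.7%. In the mixed lineage leukemia 0 were called in either direction, against 18.8% and 15.2%. Cd28, a costimulatory receptor, was at 231, 3044 and 6020 against 322. Cd2, an adhesion receptor of T cells and NK cells, was at 932, 12388 and 9782 against 746. Ptprc, the phosphatase CD45 that keeps Src family kinases active, had 36338 in the mixed lineage leukemia, 36839 in the proB ALL and 51682 in the B/T BAL, against 24486 in normal marrow, which was a call in the B/T BAL alone.

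Negative regulators had medians nearer to 0 than the members had. Of 16 genes, 2 were at least 2-fold higher and 1 lower in the mixed lineage leukemia, against 18.8% and 15.2% of all tested genes. In the proB ALL 4 were higher and 1 lower, against 11.3% and 18.7%. In the B/T BAL 6 were higher and 3 lower, against 15.4% and 17.7%. The medians were -0.24, 0.59 and 0.42 in that order. Cd5 and Cd6, surface proteins that restrain the T-cell receptor, had 4297 and 1759 in the B/T BAL, against 299 and 168 in normal marrow. In proB ALL both were below the floor, at 128 and 90.8. Dok2, an adaptor that dampens tyrosine kinase signals, had 1504 in the mixed lineage leukemia, 5674 in the proB ALL and 1736 in the B/T BAL, against 1294 in normal marrow.

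Among genes of the downstream branches, 11 of 12 were measured, with 1 higher and 1 lower in the mixed lineage leukemia, 3 higher and 1 lower in the proB ALL, and 2 higher and 2 lower in the B/T BAL. Over all tested genes 18.8%, 11.3% and 15.4% were higher and 15.2%, 18.7% and 17.7% lower on these arrays. Rasgrp1, the exchange factor that turns on Ras in T cells, had 243, 4901 and 3104 in the leukemias, against 581 in normal marrow, with probe sets that disagreed on the mixed lineage array. Nfatc2, a calcium-driven transcription factor, had 590, 1847 and 1442 against 472, with probe sets that disagreed in the mixed lineage leukemia and the proB ALL. Orai1, the pore of the calcium channel, was lower in both AF4-MLL leukemias, with 830 in the proB ALL and 972 in the B/T BAL against 2646 in normal marrow, and had 2198 in the mixed lineage leukemia.

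Transcripts that receptor signalling induces in T cells, most of which other signals induce too, were mostly called higher in the proB ALL. There 7 of 8 were called higher and 1 lower than in normal marrow, where 11.3% of all tested genes were higher and 18.7% lower. In the B/T BAL 3 were higher and 0 lower, against 15.4% and 17.7% of all tested genes. In the mixed lineage leukemia 4 were higher and 2 lower, against 18.8% and 15.2%. Among the 7, Nr4a3, a nuclear receptor, had 310 in the proB ALL against 104 in normal marrow, at least 1.64-fold, with probe sets that disagreed. Tnfrsf9, the costimulatory receptor 4-1BB of activated T cells and NK cells, had 133 in the mixed lineage leukemia, 3791 in the proB ALL and 457 in the B/T BAL, against 439 in normal marrow. Egr1, an immediate-early factor, had 4516, 3528 and 5763, against 766. Irf4 was the lower gene of proB ALL, with 496 against 1056 in normal marrow, and had 38.3 in the mixed lineage leukemia and 669 in the B/T BAL.

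The B-cell and myeloid counterparts of the members ran in the opposite sense in the B/T BAL. Of 12 genes 10 were measured. In the B/T BAL 9 were called lower and 0 higher than in normal marrow, against 17.7% and 15.4% of all tested genes. In the proB ALL 5 were lower and 1 higher, against 18.7% and 11.3%. In the mixed lineage leukemia 3 were lower and 1 higher, against 15.2% and 18.8%. The medians were -2.08, -1.11 and -0.19 in that order. Syk, the relative of Zap70 in B cells and myeloid cells, had 6398 in the mixed lineage leukemia, 4069 in the proB ALL and 1219 in the B/T BAL, against 5435 in normal marrow. Blnk, which does for B cells what Lcp2 does in T cells, had 1005, 441 and 243 in the leukemias, against 5947 in normal marrow. Btk, a relative of Txk, had 3213, 1117 and 358, against 4954. Plcg2, the phospholipase of B cells, had 10126, 6553 and 1988, against 8413. Syk, Blnk, Btk and Plcg2 thus each had their lowest signal in the B/T BAL. Blk, a Src family kinase of B cells, had 508, 288 and 294, against 3007, and Fgr, one of myeloid cells, had 5281, 1018 and 1520, against 4145. Themis2, the relative of Themis in B cells and macrophages, had 2740, 1430 and 1136, against 5167. Blk, Themis2, Tec, Blnk and Btk were highest in normal marrow. Tec, another relative of Txk, had 1313, 3211 and 1280, against 3403. Lat2, the counterpart of Lat, was the gene called higher in the proB ALL and mixed lineage leukemia, with 1249, 2843 and 91.3 in the leukemias against 521 in normal marrow, and its probe sets disagreed in the proB ALL. Prkcb, the protein kinase C isoform of B cells, was within 2-fold of normal marrow on each leukemia array.

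**Figure D4:**
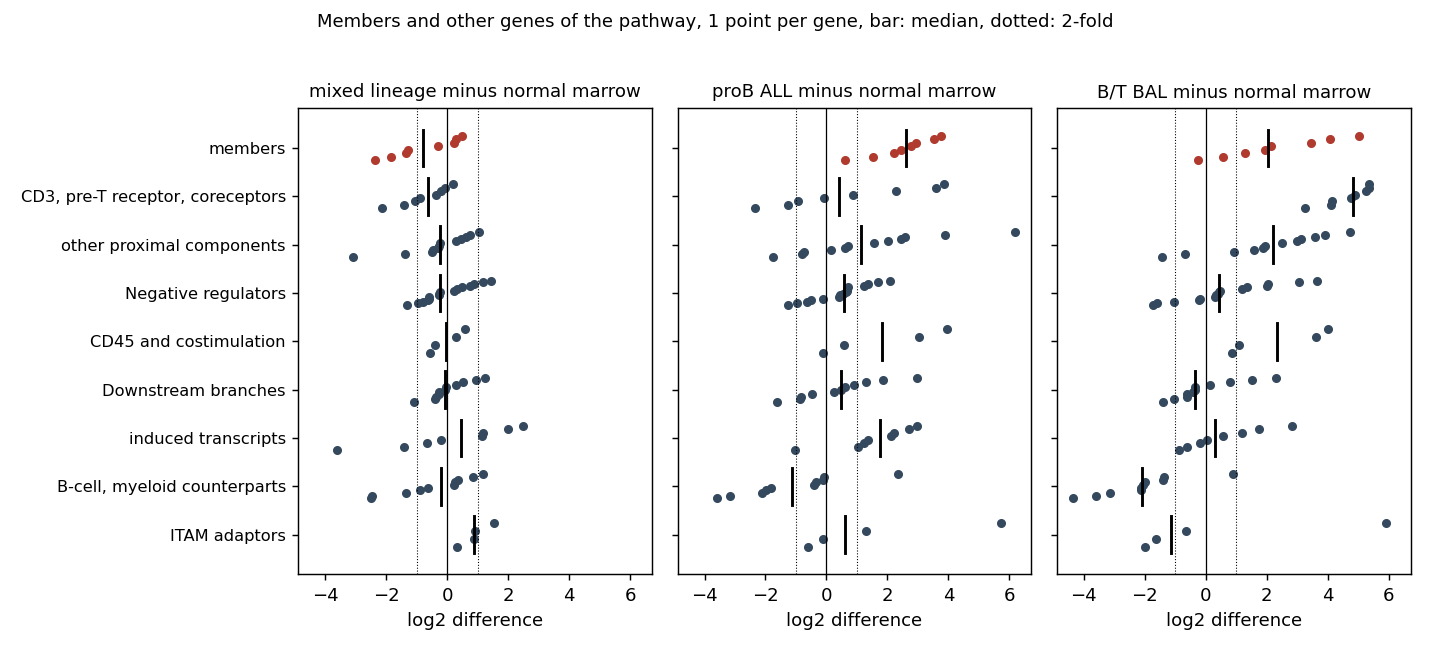
Log2 differences from normal marrow on the mixed lineage, proB ALL and B/T BAL arrays for the members (red) and the genes of 8 pathway lists (blue), 1 point per gene, with a black bar at each list's median and dotted lines at 2-fold. The members' median is 2.62 in the proB ALL and 2.04 in the B/T BAL, and the B-cell and myeloid counterparts have medians of -1.11 and -2.08 there.

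Of 5 signalling adaptors of killer and myeloid cells 4 were measured. Of these, 1 was called higher and 0 lower in the mixed lineage leukemia, against 18.8% and 15.2% of all tested genes. In the proB ALL 2 were higher and 0 lower, against 11.3% and 18.7%. In the B/T BAL 1 was higher and 2 lower, against 15.4% and 17.7%. The medians were 0.89, 0.60 and -1.14 in that order. Tyrobp (DAP12) had 63813 in the mixed lineage leukemia, 22971 in the proB ALL and 8718 in the B/T BAL, against 34839 in normal marrow, and Fcer1g had 50214, 24988 and 8587, against 26812. Hcst (DAP10), which pairs with an activating receptor of killer cells, had 8659, 7331 and 1867, against 2950. Sh2d1a (SAP), an adaptor of T cells and NK cells that recruits Fyn, had 116, 7061 and 7934, against 81.6.

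The genes outside these lists whose 3 differences from normal marrow lay nearest to the members' medians were Il7r, Emid1, Ptprcap, Xrcc5, Fasn and Agpat3, at Euclidean distances of 0.38 to 0.54 log2 units over 4 arrays. Fyn was the nearest of the members, at 0.59, and Lat the farthest, at 3.38. Il7r, the interleukin 7 receptor, had 1642 in the mixed lineage leukemia, 13196 in the proB ALL and 8906 in the B/T BAL, against 2486 in normal marrow. Ptprcap, a protein bound to CD45, had 1308, 13973 and 9601, against 1852. With 4 arrays, many genes can share such a pattern.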

How the data were processed

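Each sample's RNA gave biotin-labelled cRNA for 1 Affymetrix array, per the labels' protocols. The deposited values were intensity values per probe set, and the submitters' processing notes name MAS5 as the tool. Which MAS5 version and settings were used is not given in the sources used here, and detection calls were not used. Of the 45101 probe sets, 64 controls were left out and 34945 carried 1 gene symbol in the platform annotation. Matching through gene identifiers to RefSeq (GRCm38.p6) held 34741 of them and changed 0 symbols. No probe set of a member carried several symbols. From the signals, log2(signal + 51.4) was computed, and genes above 189 on at least 1 array were kept. Limma 3.58.1 in R 4.3.3 used lmFit, eBayes with an intensity trend and Benjamini-Hochberg adjustment, with a threshold of 0.05. Its code was run on simulated arrays with known changes and equal noise. Those arrays lack the spread among different leukemias, so the run says nothing about the power here. All p-values rest on the spread between single leukemias, drawn by eBayes toward the trend over all tested genes, and not on replicates. Folds use signals, with a dimmer side at or below 189 set to 189 and written "at least". The members, gene lists, motifs and tests were chosen with earlier results of these data known. Named genes were all members, the CD3 and counterpart lists, up to 3 genes of each other list with the largest difference, markers, and the 6 nearest genes. Nr4a3 and Hcst were named after their values were seen. Some genes of the lists are not reported here, and each list's counts are over its measured genes. Alternatives were other pseudocounts, filters, scalings and probe set choices, other variance settings, and leaving out each leukemia.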

Additional observations from a re-analysis of the deposited data

Results flagged for a closer look

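Lat, Zap70, Themis and Prkcq were each called higher than normal marrow in both AF4-MLL leukemias and lower in the mixed lineage leukemia on the log2(signal + 51.4) scale. The log2 differences on the mixed lineage, proB ALL and B/T BAL arrays were -2.37, 2.46 and 5.02 for Lat, -1.83, 1.51 and 3.46 for Zap70, -1.34, 2.79 and 4.08 for Themis, and -1.28, 3.77 and 2.14 for Prkcq. The difference between the leukemias was not tested, since each is 1 array, and the 3 differences of a gene share the normal array. Lat, Zap70 and Themis were below the floor of 189 on the mixed lineage array, and the call of Themis there was lost with signals raised to the floor, at -0.42. In groups of 1 array no sample could be compared with others of its group.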

How the results depend on the processing

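Of the counts of members between arrays, all but 3 kept within 1.5 times their value under each alternative. With a pseudocount at the 50th percentile, 2 members were lower in the mixed lineage leukemia than in normal marrow in place of 4, and 7 pathway genes in place of 12. With the mean over probe sets, 1 member was higher in the B/T BAL than in the proB ALL in place of 3, and 4 pathway genes were higher in the mixed lineage leukemia than in normal marrow in place of 10. Without probe sets ending in _s_at, _x_at or _a_at, which left Txk and Prkcq unmeasured, 0 members were lower in the B/T BAL than in the proB ALL in place of 2. The difference of Themis between mixed lineage leukemia and normal marrow turned to 0.26 with the mean over probe sets. Limma passed 15 lower genes with the pseudocount at the 50th percentile and 23 with robust eBayes, against 0. Leaving out 1 leukemia gave 0 to 4 higher and 0 to 109 lower genes: 4 and 67 without the proB ALL, 4 and 109 without the B/T BAL, and 0 and 0 without the mixed lineage leukemia. Leaving out 1 leukemia, the limma difference ranged from -0.021 (without the proB ALL) to 1.88 for Txk and from -0.16 (without the B/T BAL) to 2.49 for Zap70, against 1.17 and 1.05 with all 3. No member passed in any of these fits. The causes of these changes were not tested. Scaling to the 75th percentile moved the median of all genes in the mixed lineage leukemia by 0.13. Precision is limited by 1 array per group and by signals below the floor. No paired analysis was possible because each group has 1 array and the labels give no replicate numbers.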
